A study of Mus musculus with 10 samples.

Results

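Tuft cell genes were followed across 10 pancreas libraries, 1 library per mouse. They were chosen by name: Dclk1, Pou2f3, Trpm5, Avil, Gnat3, Sh2d6 and Ptgs1. Of these 7 genes, 6 had a row among the 24421 gene symbols of the count table. Sh2d6 is not analysed here. The RNA came from a piece of the tail of the pancreas of female mice aged 12 weeks, in a study that asks, by its title, about insulin receptor signalling in acinar cells and early tumour formation. All mice carried the tamoxifen-inducible Cre recombinase Ptf1aCreER, driven by a gene of the enzyme-making acinar cells, and the nuclear fluorescent reporter nTnG. What set the groups apart was Insr, the gene of the insulin receptor. The 3 libraries called WT had 0 floxed Insr alleles (Insrw/w), the 3 called Het had 1 (Insrw/f) and the 4 called KO had 2 (Insrf/f). Each library is named by its group and mouse number, as in WT-2404.

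Tuft cells are rare epithelial cells with a tuft of long microvilli that sense their surroundings with the machinery of taste cells. The transcription factor Pou2f3 is needed to make them. A receptor signal passes through a taste G protein and a phospholipase to the calcium-gated channel Trpm5, and the cell answers with cytokines, acetylcholine and lipid mediators made from arachidonic acid. In the mouse pancreas they are scarce in the healthy gland, and they appear among the duct-like cells that form when acinar cells lose their identity after injury or in early neoplasia. Most of the genes used to find them have other sources too. Dclk1 is also made by neurons and stromal cells, Trpm5 by beta cells, Avil by sensory neurons, and Ptgs1 by platelets, macrophages and other cells. In whole tissue pieces, fewer tuft cells and less RNA per tuft cell cannot be told apart.

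Gene counts ran from 11718559 to 19024351 per library and overlapped between groups. Digestive enzyme genes, 30 in all, made up 16.3% of all gene counts of WT-2404 and 60.8% to 80.3% of those of the other 9 libraries, so WT-2404 stood apart. The enzyme share was 60.8% and 74.1% in the other 2 WT libraries, 73.9% to 78.8% in Het and 65.0% to 80.3% in KO. Insr itself was counted in every library, at 21.0 to 40.5 counts-per-million of the scaled library (CPM) in WT, 28.2 to 44.2 CPM in Het and 22.7 to 35.5 CPM in KO. Its log2 fold change between KO and WT was 0.09 (SE 0.26, adjusted p = 0.864 by edgeR). Gene counts of a whole piece do not show whether the floxed exons were lost in acinar cells, so the genotypes are those of the labels.

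The genes lie on different chromosomes. By the GENCODE M21 annotation of GRCm38, the build (mm10) named in the submitters' processing notes, Dclk1 is at chr3:55242364-55539068 on the plus strand, Pou2f3 at chr9:43123939-43210369 on the minus strand and Trpm5 at chr7:143069153-143094642 on the minus strand. Avil is at chr10:127000709-127020994, Gnat3 at chr5:17962549-18019834 and Ptgs1 at chr2:36230426-36252272, all on the plus strand. Exons of opposite-strand genes overlap those of Trpm5 (Tssc4), Avil (Tsfm), Dclk1 (Gm21954 and Gm42609) and Ptgs1 (Gm43621). How strand was used in counting is not given in the sources used here. Tsfm had 51 counts in KO-2070, where Avil had 1.

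Promoter sequences of 5 of the 6 genes are in RefSeq's table for GRCm38.p6, with 2 start sites for Dclk1. They are shown because the levels of these genes moved together across mice, though not only with each other, as given below. A further reason is that Pou2f3 belongs to the POU family, whose factors bind the octamer motif. The 250 bases upstream of each start were searched on both strands for ATGCAAA, the core of the octamer. The Avil window held it on both strands, beginning at base -15 on the plus strand and at base -115 on the minus strand, counted from the start site. The windows of Trpm5, Gnat3, Ptgs1 and both Dclk1 starts held no match. Of all 32851 promoter windows of this length, 4.12% held at least 1 match and 0.247% held 2 or more. The full motif ATGCAAAT was in 1.60% of all windows and in none of these 6. A match is a description of the letters, not a measured binding site. The Avil window is chr10:127000459-127000708 (plus strand), with the matches in capitals, and the Trpm5 window is chr7:143094643-143094892 (minus strand). The Dclk1 windows are chr3:55242114-55242363 and chr3:55461478-55461727 (plus strand). They are shown because the longer and the shorter Dclk1 transcript start there, and the gene count adds both.
Avil: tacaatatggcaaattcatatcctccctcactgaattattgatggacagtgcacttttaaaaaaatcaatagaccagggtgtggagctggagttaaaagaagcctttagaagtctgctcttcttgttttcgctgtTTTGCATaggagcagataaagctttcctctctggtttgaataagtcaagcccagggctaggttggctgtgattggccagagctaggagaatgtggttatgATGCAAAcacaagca
Trpm5: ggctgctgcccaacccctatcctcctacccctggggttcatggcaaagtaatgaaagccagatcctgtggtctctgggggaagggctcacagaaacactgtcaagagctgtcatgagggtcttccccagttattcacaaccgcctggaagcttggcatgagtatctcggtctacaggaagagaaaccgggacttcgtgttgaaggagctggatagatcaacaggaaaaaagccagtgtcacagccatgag
Dclk1 upstream start: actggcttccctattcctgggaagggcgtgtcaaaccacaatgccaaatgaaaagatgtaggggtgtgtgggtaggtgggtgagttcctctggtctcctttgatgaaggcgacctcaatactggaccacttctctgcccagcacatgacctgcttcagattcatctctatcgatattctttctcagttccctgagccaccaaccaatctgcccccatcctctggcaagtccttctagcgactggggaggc
Dclk1 internal start: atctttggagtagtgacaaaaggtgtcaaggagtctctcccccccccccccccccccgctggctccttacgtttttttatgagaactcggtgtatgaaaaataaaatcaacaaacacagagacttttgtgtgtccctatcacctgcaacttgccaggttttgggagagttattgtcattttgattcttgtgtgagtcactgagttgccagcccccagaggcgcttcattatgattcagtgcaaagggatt

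Dclk1, a microtubule-binding kinase and the usual stain for tuft cells in the pancreas, was the tested gene whose Het and WT ranges did not overlap. Its level was 27.2, 18.8 and 14.5 CPM in WT-2404, WT-1860 and WT-2067. In Het it was 5.0, 3.92 and 10.9 CPM in Het-2066, Het-1770 and Het-2042. In KO it was 16.1, 1.98, 11.7 and 3.03 CPM in KO-2079, KO-2070, KO-2124 and KO-2126. All 3 Het libraries and 3 of the 4 KO libraries lay below the lowest WT library, while KO-2079 lay inside the WT range. The WT mean of 20.2 ± 6.46 CPM (SD, n = 3) compares with 6.61 ± 3.77 for Het (SD, n = 3) and 8.19 ± 6.82 for KO (SD, n = 4). The log2 fold change was -1.59 for Het against WT (SE 0.67, unadjusted p = 0.0373 and adjusted p = 0.229 by edgeR), and -1.26 for KO against WT (SE 0.60, unadjusted p = 0.0621 and adjusted p = 0.233 by edgeR). Neither passed the adjusted threshold of 0.05 among 13688 tested genes. Leaving WT-2404 out gave -1.29 and -0.95.

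Avil encodes advillin, an actin-binding protein of the microvillus tuft. It was at 9.51, 17.7 and 10.1 CPM in WT-2404, WT-1860 and WT-2067, and at 2.81, 7.36 and 11.2 CPM in Het-2066, Het-1770 and Het-2042. KO-2079 and KO-2124 had 9.71 and 7.56 CPM. KO-2126 had 0.910 CPM from 9 counts, and KO-2070 had 0.132 CPM from a single count, whose exact Poisson 95% interval is 0.0253 to 5.57 counts. The KO group thus held a pair of mice near the WT level and a pair far below any WT or Het mouse. Its mean was 4.58 ± 4.78 CPM (SD, n = 4), against 12.4 ± 4.59 for WT (SD, n = 3) and 7.14 ± 4.22 for Het (SD, n = 3), and the ranges of all 3 groups overlapped. The log2 fold change to WT was -1.35 for KO (SE 0.80, adjusted p = 0.321 by edgeR) and -0.78 for Het (SE 0.86, adjusted p = 0.618 by edgeR). The KO value ran from -1.95 to -1.0 as single libraries were left out. The Het value was -0.40 without Het-2066, -0.44 without WT-1860 and -1.28 without Het-2042.

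Pou2f3, the tuft cell master regulator, was near the limit of detection. It had 35, 28 and 6 counts in WT-2404, WT-1860 and WT-2067, 3, 3 and 12 counts in Het-2066, Het-1770 and Het-2042, and 19, 0, 2 and 1 counts in KO-2079, KO-2070, KO-2124 and KO-2126. A count of 0 allows up to 3 counts, which is 0.395 CPM in KO-2070. In CPM the WT mean was 0.828 ± 0.619 (SD, n = 3), the Het mean 0.427 ± 0.269 (SD, n = 3) and the KO mean 0.342 ± 0.557 (SD, n = 4). KO-2079, at 1.18 CPM, held most of the KO signal. The fold changes of -1.11 (SE 0.94) for KO and -0.88 (SE 1.01) for Het against WT had adjusted p of 0.482 and 0.631 by edgeR. They rested on single mice, since KO against WT was -3.35 without KO-2079 and -0.38 without WT-1860, and Het against WT was -0.15 without WT-1860 and -1.57 without Het-2042.

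Trpm5, the cation channel that opens at the end of the taste cascade, had the smallest fold changes to WT of the 5 genes tested. WT-2404, WT-1860 and WT-2067 had 5.71, 8.70 and 5.82 CPM. Het-2066, Het-1770 and Het-2042 had 4.12, 1.96 and 7.49 CPM. KO-2079, KO-2070, KO-2124 and KO-2126 had 6.99, 3.56, 5.67 and 1.92 CPM. Levels in the Het and KO groups reached from well under the WT range into it. The WT mean of 6.74 ± 1.69 CPM (SD, n = 3) compares with 4.52 ± 2.79 for Het (SD, n = 3) and 4.53 ± 2.24 for KO (SD, n = 4). The log2 fold change to WT was -0.54 for KO (SE 0.45, adjusted p = 0.477 in edgeR) and -0.55 for Het (SE 0.49, adjusted p = 0.519 in edgeR). The Het value moved to -0.20 without Het-1770 and to -1.14 without Het-2042, and the KO value to -0.29 without KO-2126, -0.32 without WT-1860 and -0.82 without KO-2079.

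Gnat3 encodes gustducin, the G protein alpha subunit of taste cells. It did not pass the filter on low counts, and its largest count was 14. The counts were 14, 7 and 5 in WT-2404, WT-1860 and WT-2067, 2, 2 and 8 in Het-2066, Het-1770 and Het-2042, and 3, 0, 3 and 0 in KO-2079, KO-2070, KO-2124 and KO-2126. All 4 KO libraries lay below the WT libraries in CPM, at 0.0 to 0.186 against 0.234 to 0.383, but the 3 counts that a count of 0 allows are 0.395 CPM in KO-2070 and 0.303 CPM in KO-2126, inside or above the WT range. The groups are therefore not separated at this depth. An exact permutation test of CPM over mice (two-sided) gave p = 0.0571 for KO against WT, where the smallest possible p is 0.0286. For Het against WT the exact permutation p was 0.8. Fitted without the filter, KO against WT was -1.56 (SE 0.95, adjusted p = 0.377 by edgeR).

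Ptgs1 encodes cyclooxygenase 1, which starts the synthesis of prostaglandins. It was at 13.5, 10.8 and 6.37 CPM in WT-2404, WT-1860 and WT-2067, at 4.74, 4.57 and 7.31 CPM in Het-2066, Het-1770 and Het-2042, and at 5.75, 3.29, 10.9 and 4.75 CPM in KO-2079, KO-2070, KO-2124 and KO-2126. Both floxed groups overlapped the WT range, Het through Het-2042 and KO through KO-2124. The WT mean of 10.2 ± 3.58 CPM (SD, n = 3) compares with 5.54 ± 1.53 for Het (SD, n = 3) and 6.18 ± 3.32 for KO (SD, n = 4). On the log2 scale Het stood at -0.88 to WT (SE 0.41, adjusted p = 0.253 in edgeR) and KO at -0.70 (SE 0.37, adjusted p = 0.267 in edgeR). KO against WT was -1.15 without KO-2124 and -0.43 without WT-2404, and Het against WT was -0.60 without WT-2404. None of these passed.

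**Figure D1:**
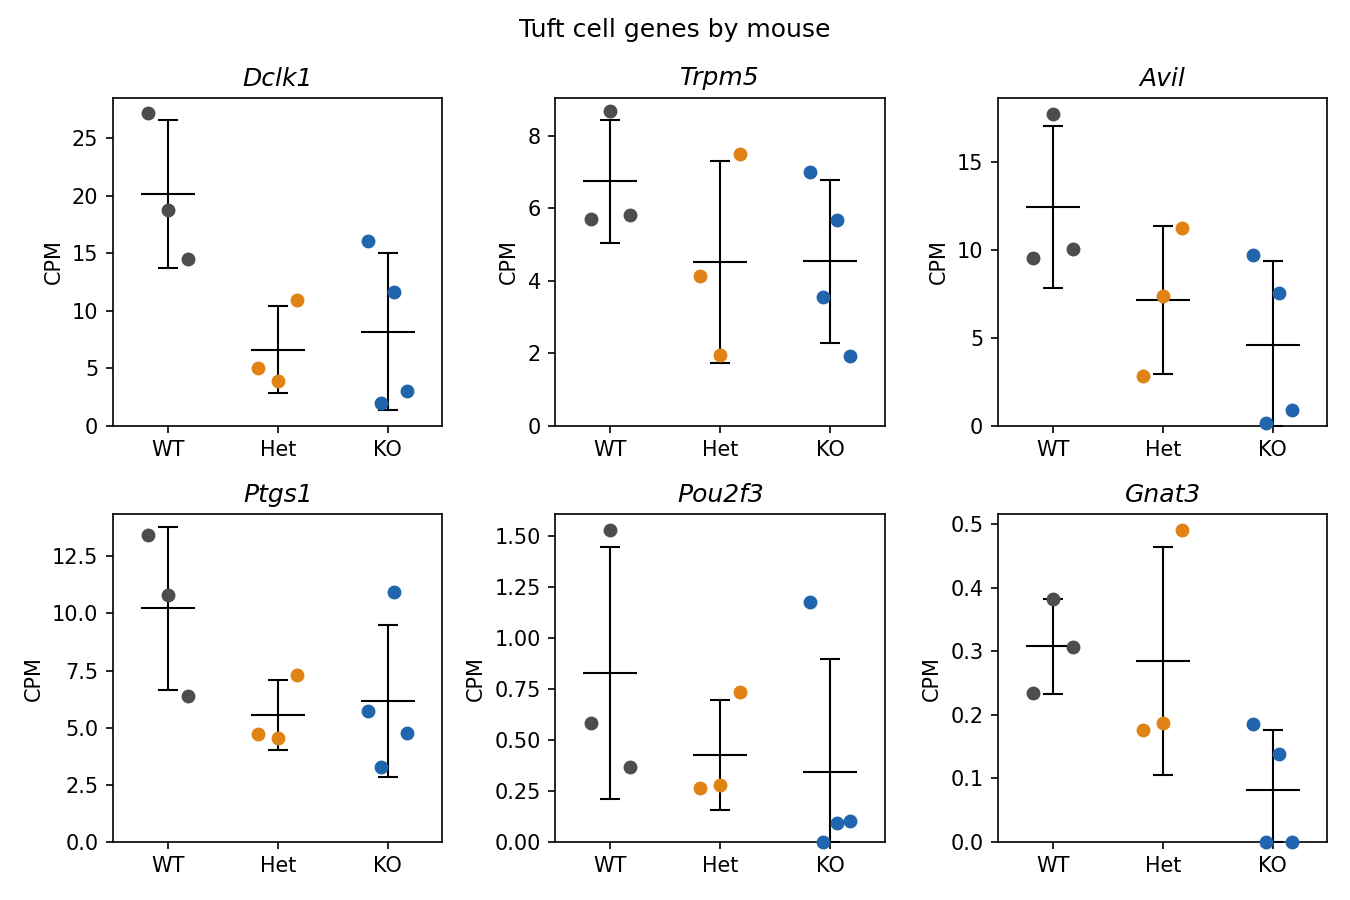
Level of each tuft cell gene in CPM (vertical axis, linear, from 0) by group, with 1 point per mouse, the group mean as a horizontal line and bars of 1 SD that stop at 0. The Het and KO points of Dclk1 lie mostly under the lowest WT point of 14.5 CPM, and KO points of Avil split into a pair at 7.56 and 9.71 CPM and a pair under 1 CPM.

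In KO against WT, all 5 tested genes had a negative log2 fold change, as did 48.1% of all tested genes. Their median was -1.11, against 0.03 over all genes tested. None of the 5 passed an adjusted p of 0.05 (0 of 5), where 0% of all genes did, with 1315 genes higher and 1907 lower at an unadjusted p under 0.05 in edgeR and 984 genes called by DESeq2. At an unadjusted p under 0.05, 0 of the 5 were lower, against 13.9% of all genes, and 0 were higher, against 9.61%. The ranges of KO and WT did not overlap for 0 of the 5, against 9.15% of all genes with KO below WT and 6.74% with KO above. All 5 thus shared a direction, while the counts past a threshold or without overlap were 0.

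In Het against WT, which uses the same WT mice, all 5 tested genes again had a negative log2 fold change, as did 49.7% of all genes, and their median was -0.88 against 0.00 over all genes. No gene passed the adjusted threshold (0 of 5, and 0% of all genes, with 1131 higher and 1584 lower at an unadjusted p under 0.05 in edgeR and 318 called by DESeq2). Only Dclk1 (1 of 5) had an unadjusted p under 0.05, against 11.6% of all genes in the lower direction and 8.26% in the higher. Only Dclk1 had separate ranges, with Het below WT, against 13.5% of all genes in that direction and 11.3% in the other. For 3 against 3 mice an exact permutation test cannot give a p under 0.1.

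KO against Het showed no shared direction. Dclk1 was at 0.34 (SE 0.63), Ptgs1 at 0.18 (SE 0.39), Trpm5 at 0.01 (SE 0.46), Pou2f3 at -0.23 (SE 1.02) and Avil at -0.57 (SE 0.82), each with an adjusted p of 1.0 by edgeR. So 2 of 5 were negative, as were 48.5% of all genes. No member had an unadjusted p under 0.05 (0 of 5, against 0.351% of all genes lower and 0.402% higher), and DESeq2 called 0 genes. The ranges overlapped for all 5, where 1.16% of all genes were separate with KO lower and 1.3% with KO higher.

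**Figure D2:**
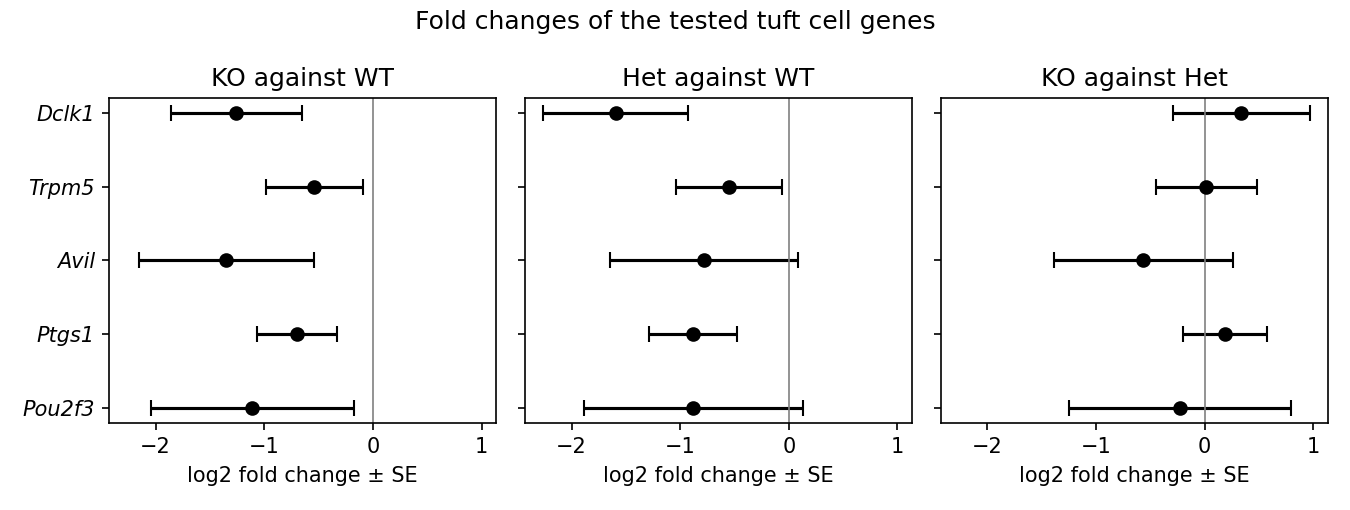
Log2 fold change (horizontal axis) of the 5 tested tuft cell genes in each comparison, with bars of 1 SE from edgeR. All points lie left of 0 in the comparisons with WT, from -1.59 to -0.54, and on both sides of 0 in KO against Het.

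Within the Het and KO groups, each of the 5 tested genes had a wider range between mice than the median gene. Within the KO group, the log2 CPM of Avil spanned 5.37 from the lowest to the highest mouse, that of Pou2f3 3.59 and that of Dclk1 2.96, where the median gene spanned 0.81 and the 90th percentile was 2.11. Trpm5 and Ptgs1 spanned 1.81 and 1.70. In Het, Avil, Trpm5 and Dclk1 spanned 1.96, 1.88 and 1.46, above the 90th percentile of 1.41, and Ptgs1 spanned 0.67. In WT the median of the 5 genes was 0.90, against 0.70 over all genes, and Trpm5 spanned 0.60, less than the median gene. The Pou2f3 values rest on 0 to 35 counts.

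The same mice were low or high for several of these genes. KO-2070 was the lowest of the 10 libraries for Dclk1, Pou2f3, Avil and Ptgs1, and KO-2126 the lowest for Trpm5 and the second lowest for Dclk1 and Avil. Among Het mice, Het-2042 was the highest for all 6 genes, and it was the highest of all libraries for Gnat3. WT-1860 was the highest of all for Pou2f3, Trpm5 and Avil, and WT-2404 for Dclk1 and Ptgs1. Over the 10 libraries, Pearson's r of log2 CPM between pairs of the 5 tested genes ran from 0.51 (Pou2f3 and Ptgs1, Spearman 0.45) to 0.86 (Dclk1 and Ptgs1, Spearman 0.82), and from 0.51 to 0.88 without WT-2404. Trpm5 and Avil had r = 0.59 but a Spearman correlation of 0.93, with KO-2070 far lower for Avil than for Trpm5. The shared pattern was not particular to tuft cell genes. With the mean of 11 ductal genes, r was 0.94 for Dclk1, 0.88 for Avil, 0.83 for Ptgs1, 0.79 for Pou2f3 and 0.68 for Trpm5. With 12 myeloid genes it was 0.91, 0.77, 0.89, 0.64 and 0.56 in the same order. Islet genes went the other way, with r from -0.57 for Ptgs1 to -0.0095 for Trpm5. These values describe 10 points that share library depth and the scaling for enzyme content.

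KO-2070 had few or no counts of some of these genes. It had 1 count of Avil and 0 of Pou2f3 and Gnat3, but 15 counts of Dclk1, 27 of Trpm5 and 25 of Ptgs1. The same held in KO-2126, with 1 count of Pou2f3, 0 of Gnat3 and 9 of Avil beside 30 of Dclk1, 19 of Trpm5 and 47 of Ptgs1. Both libraries had the largest enzyme shares among all 10, at 80.3% and 80.1%. KO-2079 and KO-2124, at 73.9% and 65.0%, had 157 and 164 counts of Avil. The 3 counts that a count of 0 allows are 0.395 CPM in KO-2070. That is above the Gnat3 level of every WT library, the highest being 0.383 CPM. For Pou2f3 it is above WT-2067, at 0.368 CPM, but below WT-2404 and WT-1860, at 0.585 and 1.53 CPM. The count of 0 for Gnat3 in KO-2070 thus does not set it apart from WT levels, and that for Pou2f3 does not set it apart from the lowest WT library. Avil, at 9.51 CPM or more in WT, lay far below.

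Per kilobase of exon, which allows levels of different genes to be set side by side, Avil was the most abundant in WT at 3.66 ± 1.35 CPM per kb (SD, n = 3). Ptgs1 followed at 2.63 ± 0.921, Dclk1 at 1.32 ± 0.422 and Trpm5 at 1.05 ± 0.264 (SD, n = 3 each). Each neighbouring pair among these 4 genes had overlapping ranges over the WT mice. Pou2f3 and Gnat3, at 0.268 ± 0.200 and 0.226 ± 0.0547 (SD, n = 3 each), were lower than the other 4 genes in mean. In KO the order was Ptgs1 at 1.59 ± 0.855, Avil at 1.35 ± 1.41, Trpm5 at 0.709 ± 0.351 and Dclk1 at 0.535 ± 0.446 (SD, n = 4 each), with spreads that overlap throughout. Exon lengths are the union over all transcripts, 15296 bases for Dclk1.

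Ductal genes were lower in Het and KO mice than in WT mice, and how they ranked the mice depended on the measure. The mean log2 CPM of 11 ductal and epithelial genes, among them Krt19, Sox9 and Epcam, was 4.70 to 5.38 in WT, 3.52 to 4.40 in Het and 2.87 to 4.36 in KO, lowest in KO-2070 and KO-2126. By summed CPM, which follows the abundant genes, the lowest were Het-2066 at 270.0, KO-2124 at 306 and KO-2070 at 315, with KO-2126 at 380. Measured against the mean log2 CPM, Dclk1 was at -0.77 ± 0.15 for WT (SD, n = 3), -1.38 ± 0.58 for Het (SD, n = 3) and -1.03 ± 0.69 for KO (SD, n = 4), a KO minus WT difference of -0.25. Against gastric metaplasia genes this difference was 0.25, with Dclk1 at 1.54 in KO-2070 and at -1.56 to -0.99 in the other KO mice. The ductal mean was itself lower in every Het and KO library than in any WT library. Subtracting it therefore raises a gene whose level did not change. Shares of all genes against WT on this scale carry that shift and are not a neutral background. Relative to the ductal genes, the Het values of Dclk1 lay below all WT values, which 0.899% of all tested genes also did on this scale, while 61.1% lay above. Avil was at -1.48 ± 0.58 for WT (SD, n = 3) and -1.34 ± 0.57 for Het (SD, n = 3), a difference of 0.14. In KO it was at -1.07 and -1.17 in KO-2079 and KO-2124 and at -4.94 and -3.02 in KO-2070 and KO-2126. Trpm5 and Ptgs1 stood 0.78 and 0.68 higher in KO than in WT on this scale, while their log2 fold changes without this reference were -0.54 and -0.70. None of the 5 genes had separate KO and WT ranges relative to the ductal genes (0 of 5), where 61.1% of all genes were separate and higher and 0.38% separate and lower. Between KO and Het on this scale 0 of 5 were separate, against 0.132% of all genes lower and 1.1% higher. The part of the ductal genes in the tuft cell gene levels was not tested.

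**Figure D3:**
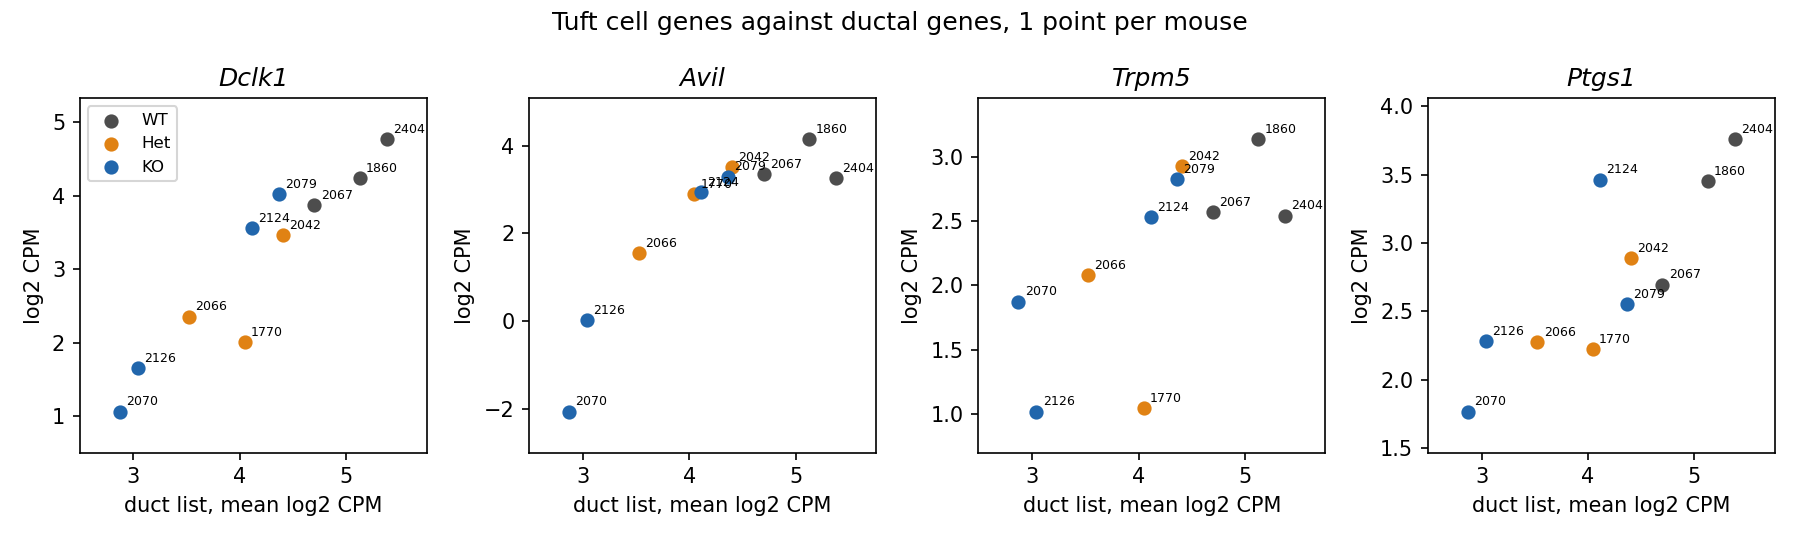
Log2 CPM of 4 tuft cell genes (vertical axes) against the mean log2 CPM of 11 ductal genes (horizontal axis), 1 point per mouse, labelled by mouse number and coloured by group. KO-2070 and KO-2126 lie at the low end of the ductal axis, at 2.87 and 3.04, and Avil drops further there than the other 3 genes.

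Beyond the 6 genes, 38 further genes of tuft cell biology were followed, of which 28 were tested. In KO against WT 27 of the 28 were lower, with a median log2 fold change of -0.94, and 15 had an unadjusted p under 0.05 in the lower direction, where 13.9% of all genes did. In Het against WT all 28 were lower, with a median of -1.27, and 13 had an unadjusted p under 0.05, against 11.6% of all genes. None passed the adjusted threshold in either comparison by edgeR (0 of 28). Leaving out WT-2404 brought the 15 to 3 of 29, where 728 of all 13768 genes were lower at that p, and the 13 to 5 of 29, against 497 of 13768. DESeq2 called 5 of them in KO against WT (Alox5ap, Nrep, Runx1, Tbxas1 and Vil1) and 2 in Het against WT (Plcg2 and Runx1), out of 984 and 318 calls among the 13992 genes to which it gave an adjusted p.

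The taste signalling genes were mostly too scarce to test, 3 of 9 passing the filter. The 3 were Plcg2 and Plcb2, phospholipases that split membrane lipid into second messengers, and Itpr3, the calcium release channel they act on. In WT, Plcg2 averaged 14.2 ± 5.44 CPM, Plcb2 at 2.83 ± 0.753 and Itpr3 at 43.5 ± 4.74 (SD, n = 3 each). Their log2 fold changes in Het against WT were -1.34, -0.97 and -0.41, with separate ranges for all 3, where 13.5% of all genes were separate and lower, and in KO against WT the median was -0.95. Plcg2 is also a gene of B cells and macrophages. The taste receptor Tas1r1 had 2 counts in all 10 libraries together and the gustducin partner Gnb3 had 7, so these parts of the cascade were not measurable at this depth. Gng13, the gamma subunit that pairs with gustducin, had 29 counts in all, and 0 in both KO-2070 and KO-2126.

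Genes for lipid mediators made up most of the second group, with 8 of 10 tested, all 8 lower in both comparisons and medians of -1.43 in KO and -1.40 in Het against WT. Alox5 and its helper Alox5ap start leukotriene synthesis, Ltc4s makes leukotriene C, Hpgds makes prostaglandin D and Tbxas1 makes thromboxane. Alox5ap was at 30.2, 15.8 and 8.09 CPM in WT-2404, WT-1860 and WT-2067, with 2.64 CPM in KO-2070. Ltc4s was at 11.1, 5.03 and 1.53 CPM in WT-2404, WT-1860 and WT-2067, and had 0 counts in KO-2070, where 3 counts are 0.395 CPM. In each comparison 6 of the 8 had an unadjusted p under 0.05, where 13.9% of all genes were lower in KO and 11.6% in Het, and without WT-2404 0 of the 8 did. The cytokine Il25, a defining product of intestinal tuft cells, had 3 counts over all libraries, and Chat, which makes acetylcholine, had 8.

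In the third group, of regulators and structural genes, 17 of 19 were tested, 16 lower in KO and 17 lower in Het against WT, with medians of -0.81 and -0.98. The exception in KO was Espn, at 0.69 against WT (SE 0.33, adjusted p = 0.228 by edgeR). Its KO range of 3.13 to 4.76 CPM lay above its Het range of 1.67 to 2.33 CPM, as for 1.3% of all genes. Etv1 and Lrmp were near their WT level in KO, at -0.11 and -0.01. Vil1, the microvillus protein villin, averaged 20.5 ± 5.15 CPM over WT (SD, n = 3) and had 3.03 CPM in KO-2070. Rgs13, a regulator of G protein signalling, was at 5.24 ± 0.788 CPM in WT (SD, n = 3), with 0 counts in KO-2070 and 1 in KO-2126, like Avil. Bmx, a tyrosine kinase, was nearer to its WT level of 1.73 ± 0.151 CPM (SD, n = 3) in these libraries, with 13 counts or 1.71 CPM in KO-2070 and 8 counts or 0.809 CPM in KO-2126. Gfi1b, a transcription factor shared by tuft cells and platelet precursors, had 31 counts in KO-2124 and 6, 0 and 3 in the other KO mice. The widely made epithelial genes Krt18 and Cd24a differed little from WT, at -0.22 in Het against WT for each.

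**Figure D4:**
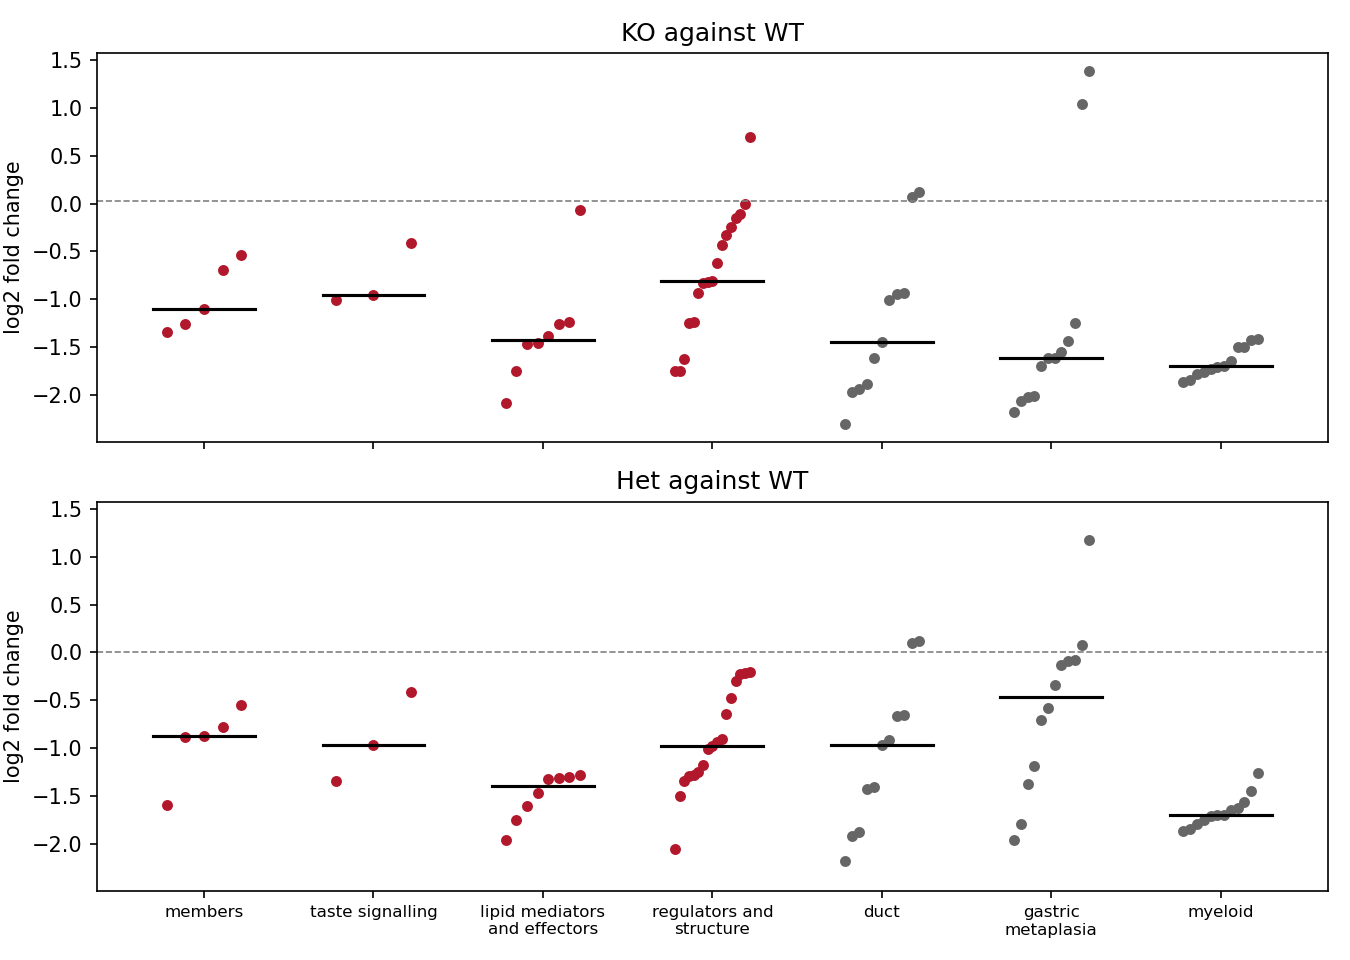
Log2 fold change (vertical axes) of each tested gene in 4 tuft cell lists (red) and in ductal, gastric metaplasia and myeloid lists (grey), in KO against WT above and Het against WT below, with the list median as a black line and the median of all tested genes dashed. Medians of the tuft cell lists lie between -1.43 and -0.81, beside -1.70 for the myeloid list in both comparisons.

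Many of these further genes are also made by white blood cells, whose markers were lower in both floxed groups too. All 12 myeloid markers were lower in both comparisons, with a median of -1.70 in each, or -0.89 in KO and -0.88 in Het without WT-2404. Their summed level was 502 to 2031 CPM in WT, 270 to 407 in Het and 152 to 576 in KO. The highest value was that of WT-2404 and the lowest that of KO-2070, and the next WT value was 794. Of 8 lymphoid markers, 8 were lower in both comparisons, with sums of 16.1 to 38.3 CPM in WT, 6.99 to 8.53 in Het and 1.82 to 23.7 in KO. Gastric metaplasia genes had medians of -1.62 in KO and -0.46 in Het against WT, and 5 of the 12 had 0 counts in KO-2070. Fibroblast markers, which matter for Dclk1, had medians of -1.70 and -1.50, and of -1.18 and -0.97 without WT-2404. The part of these cells in the tuft cell gene values was not tested.

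Other possible sources gave different patterns. The 9 platelet markers summed to 4.17 to 17.1 CPM in WT, 4.36 to 6.49 in Het and 3.03 to 14.98 in KO. WT-2404 and KO-2124 were highest in their groups for both the platelet sum and Ptgs1. In Het the order differed, with the highest platelet sum in Het-2066 and the lowest in Het-2042, where Ptgs1 was highest. The share of platelets in Ptgs1 was not tested. Neural and glial markers summed to 4.09 to 13.7 CPM over all libraries, and Sox10, a defining gene of glia, had 32 counts in all. Islet genes were abundant in every library. Their sum was 487 CPM in WT-2404, 3095 and 5745 in the other WT libraries, 4999 to 9946 in Het and 3640 to 8552 in KO. Pearson's r between Trpm5 and the islet list was -0.0095 over the 10 libraries and 0.26 without WT-2404. WT-2404 had the lowest islet sum and 5.71 CPM of Trpm5, where the other WT libraries had 5.82 and 8.70 CPM. The share of beta cells in Trpm5 was not tested. Mast cell and basophil markers summed to 11.2 to 23.7 CPM, with Tpsab1 at 4 counts in all.

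The genes whose pattern over the 10 libraries was most like each tuft cell gene differed between them. For Avil they were Gpa33 (Pearson 0.99, Spearman 0.82), Sh2d7, Mal, Eps8l3 and Slc9a2, with r between 0.97 and 0.99 also without WT-2404. Sh2d7 ran from 0 to 3.66 CPM. For Dclk1 they included Fyb (0.99), Tm4sf20, Cideb and Pik3r5. Pou2f3 was most like Duox2 (0.92), Galnt4, Duoxa2, Pkp1 and Tmem45b, and Trpm5 most like Zim1 (0.96), Mtcl1, H2-DMb2, Sept3 and Unc5b. Ptgs1 was most like Ifnar1 (0.97), Nfya, Ndc80, Ap1m1 and St3gal5. None of the 5 lists shared a gene. For the mean of the 5 standardised genes the nearest were Cideb (0.98), 9130008F23Rik, Gpr55, Epha2, F5, Filip1l, Pkp1 and Naip5. These are the highest of 13688 genes over 10 points and are descriptions only.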

How the data were processed

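RNA was sequenced from 10 pancreas tail pieces. Raw read counts, in whole numbers, were deposited for each gene symbol and mouse. The submitters' processing notes name the build mm10 and the tools DRAGEN, STAR and Cufflinks, without role or version; the counting tool and its strand setting are not given in the sources used here. All columns were matched by title, and 0 were left over. Of 2 rows that name no gene, reads outside genes made up 2.59% to 8.71% and ambiguous reads 0.101% to 0.584% of the counts, and both stayed out of all steps. No pair of libraries in a group agreed within sampling noise (chi-square per degree of freedom 26.5 or more). By its label each library is from a mouse of its own number, and p-values measure the spread between these mice.

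Genes passing edgeR 4.0.16's filterByExpr (minimum count 10), 13688 of 24421, were scaled with TMM and tested by its quasi-likelihood test (robust, two-sided) in 1 fit over all groups, with Benjamini-Hochberg adjustment over all genes. TMM factors ran from 0.596 to 3.54. CPM used the scaled library size, and log2 CPM a prior count of 2. DESeq2 1.42.0, other scalings and filters, and leaving out each library were alternatives. The fit was tested on simulated data. Poisson intervals, the 3-count limit for a count of 0 and their CPM cover counting error only. Exon lengths are from GENCODE M21 and promoters from RefSeq. Genes named as most similar are the 5 highest by Pearson correlation with each member and the 8 highest with their mean; all listed genes could be named. The members and lists were chosen with earlier results of these data known. Some items, among them a part of the genotype shared by every mouse, are not reported here.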

Additional observations from a re-analysis of the deposited data

Results flagged for a closer look

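Among the 4 KO libraries, the gap test of Dixon, run on 8 measures, set 1 library apart in 2 of them. Chance flags about 1 group in 20 when values are independent and normally spread. These measures share the same 4 libraries, and Pou2f3 was near 0 counts in the other KO mice, so the 2 flags cannot be set against that rate. Both were in KO-2079. Pou2f3 was at 1.18 CPM there, from 19 counts, while the remaining KO libraries had at most 0.101 CPM. Insr was at 22.7 CPM there, the lowest of the KO group, whose highest value was 35.5 CPM. No explanation was tested.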

How the results depend on the processing

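For the 5 tested tuft cell genes, KO against WT and Het against WT kept their negative direction under all 17 alternatives. Dclk1 ran from -2.47 to -0.95 in KO and from -3.11 to -1.29 in Het. No paired analysis was possible because the labels give each mouse its own number. By library size alone the median over all tested genes was -1.17 in KO and -1.36 in Het against WT. With this scaling 2841 and 3140 genes passed, and so did Dclk1 in KO (-2.47, adjusted p = 0.0492 by edgeR) and Dclk1 and Ptgs1 in Het (-3.11 and -2.42, both with adjusted p = 0.0402 or 0.0403 by edgeR). DESeq2 called 984 and 318 genes and 0 of the members. Leaving out single libraries gave 0 to 1932 genes in KO against WT and 0 to 1160 in Het against WT, the highest counts without WT-2067, and 0 in KO against Het. The cause was not tested.

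KO against Het had no stable sign over the libraries left out. Dclk1 ran from -0.19 to 0.92, Pou2f3 from -2.47 to 0.46, Trpm5 from -0.34 to 0.60 and Ptgs1 from -0.28 to 0.44, while Avil stayed negative. Pou2f3 has no value with only Het and KO fitted, since it did not pass the filter there. Insr in KO against WT ran from -0.12 to 0.38 over the libraries left out and was -0.89 by library size alone, and in Het against WT -0.80 by library size alone.

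With gastric metaplasia genes in place of ductal genes as the reference, Dclk1 moved to -1.20 in Het against WT and 1.45 in KO against Het, and Pou2f3 to 0.63 in KO against Het. Trpm5 moved to 1.29 in KO against WT and 1.53 in KO against Het, Avil to -0.45 in Het against WT, and Ptgs1 to 1.19 in KO against WT, -0.35 in Het against WT and 1.54 in KO against Het. The sign also differed from the ductal reference by less than 1 SD for Dclk1 and Pou2f3 in KO against WT (0.25 and 0.40) and for Pou2f3 and Trpm5 in Het against WT (-0.23 and -0.24). The mean log2 CPM of the gastric metaplasia genes was -0.48 in KO-2070, against 3.21 to 5.01 in the other KO libraries. Relative to it, Trpm5 stood at 2.36 in KO-2070 and at -2.19 to -2.04 in the other KO libraries. Dclk1 stood at 1.54 in KO-2070 and at -1.56 to -0.99 in the others. The KO means of these genes on this scale thus lean on KO-2070. With Epcam and Krt19 as the reference none moved by 1 SD. Both are themselves among the ductal genes, so this reference is not independent of the ductal one. Depth limits Pou2f3 and Gnat3, with at most 35 and 14 counts per library.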
